A study of Homo sapiens with 6 samples.

Results

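The 10 genes described here encode proteins of the cornified envelope, the enzymes that crosslink them, and antimicrobial proteins of epithelial surfaces: SPRR1A, SPRR1B, SPRR2A, SPRR3, IVL, TGM1, TGM2, PI3, SLPI and LCN2. They were taken by gene symbol, and all 10 were found among the 27216 rows of the expression table. RNA-seq had been run on H1975, an established non-small cell lung cancer line with mutant EGFR. The study reports that the EGFR tyrosine kinase inhibitor osimertinib (Osi) held back its growth at first. By 72 h, it reports, plated cells had gained adaptive resistance. The 6 samples were 3 of parental cells taken at 0 h of Osi and 3 of adapted cells, which were what remained after 72 h at 1000 nM once apoptotic cells had been washed off. All samples came from this 1 line and were labelled wild type for genotype, beside the EGFR mutation that the line carries. The table heads the columns of the parental cells as DMSO, and the sources used here do not say how long those cells had been in vehicle. The labels name an RNase R digestion, which removes linear RNA, before library preparation, and the study's methods for RNA-seq do not, so which was done is not known. The study says in general terms that its data came from independent experiments and technical replicates, and nothing ties these RNA-seq replicates to separate cultures, so p-values measure the spread between these samples, which may be technical.

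In stratified epithelia, cells that leave the basal layer stop dividing and build the cornified envelope beneath the plasma membrane. Involucrin forms an early scaffold, small proline-rich proteins are added to it, and transglutaminases join them by bonds between glutamine and lysine side chains. The same epithelia, and the airway, secrete antiproteases and proteins that deprive bacteria of iron or kill them, and many of these genes are induced by inflammatory cytokines and by EGFR ligands in keratinocytes and airway cells.

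Values were deposited on a log2 scale whose unit was not named, and were read as log2(FPKM + 1). FPKM divides a gene's fragments by its length and by the fragments of the whole sample. Depth is unknown, so no counting error could be given, and means below are ± SD with n = 3 in each group. Back on the linear scale the samples summed to between 375342 and 387753. Over all rows the parental samples correlated with each other at r = 0.997. Adapted replicate 1 stood somewhat apart from the other adapted samples, at r = 0.991 with each against 0.996 between them, and lay nearer to the parental samples. Changes were tested with limma on the 12656 rows whose mean log2 value was at least 1, with p adjusted over all of them and a threshold of 0.05. For 3 samples against 3 the exact two-sided permutation test cannot go below p = 0.1.

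Most of these genes fell in adapted cells, and a few went the other way. On the log2(FPKM + 1) scale SPRR2A and PI3 fell most, and SPRR1A, SPRR1B, SLPI and TGM2 fell too. In mean FPKM SPRR1A fell 16.8-fold and PI3 13.5-fold, but the SPRR1A fold divides by an adapted mean of 0.194 FPKM. With 0.1 added in place of 1, PI3 fell more, with log2 fold changes of -3.66 for PI3 and -3.49 for SPRR1A. Which of these genes fell more thus depends on the scale. SPRR3 and TGM1 rose, and LCN2 did not pass the threshold. IVL was too low to be tested. Of the 9 genes that passed the filter, 8 were called, 6 lower and 2 higher. Over all rows, 56.9% of tested rows were called, 26.2% lower and 30.7% higher, so a call as such does not set these genes apart. SPRR1A, SPRR1B and SPRR2A passed the filter through their parental levels, since their adapted means were under 1. The sizes can be read against all tested rows, whose log2 fold changes had a median of 0.03 and a 10th and 90th percentile of -0.65 and 0.72. From the lowest, SPRR2A ranked 36 and PI3 ranked 38 of 12656, and 1.78% of tested rows had a log2 fold change as low as or lower than that of SLPI. The groups did not overlap in 8 of the 9 tested genes, and in 66.3% of all tested rows.

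**Figure D1:**
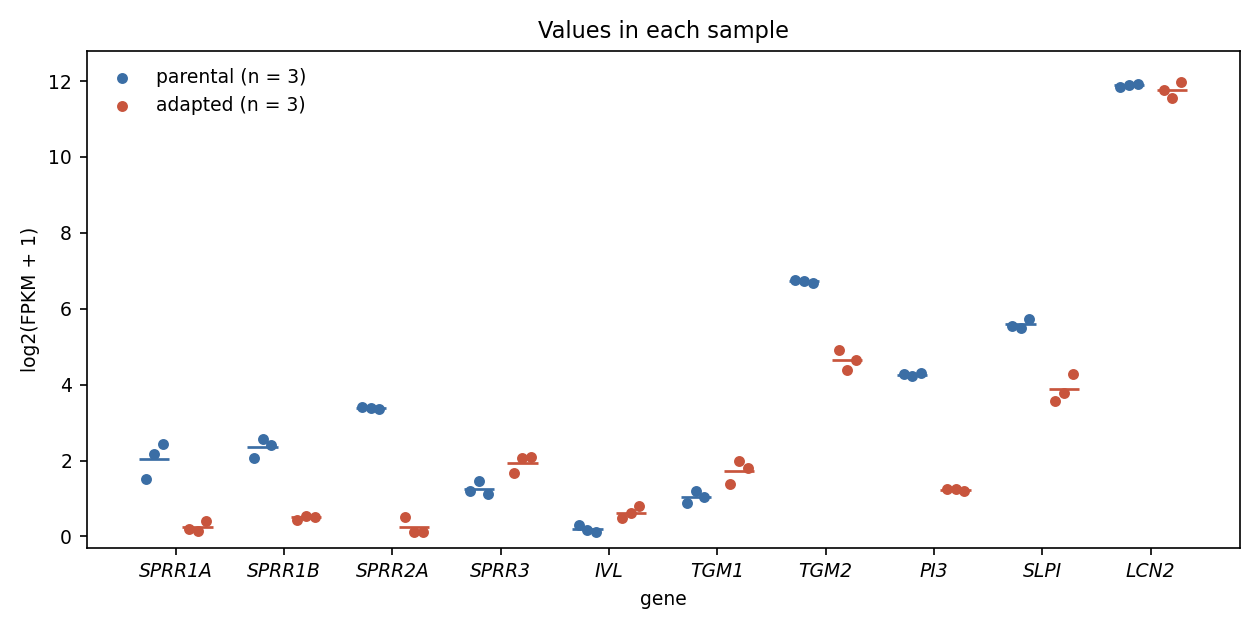
Values of the 10 genes in each sample. The vertical axis is log2(FPKM + 1), each point is a sample, the replicates stand in order 1 to 3 from left to right, and horizontal lines are group means. The groups are apart in every gene but LCN2, and SPRR3, IVL and TGM1 are the genes whose adapted samples lie above the parental ones.

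The small proline-rich proteins SPRR1A, SPRR1B, SPRR2A and SPRR3 are envelope precursors encoded with IVL in the epidermal differentiation complex. On GRCh38, IVL and these genes lie within 149 kb of chromosome 1, with SPRR1A at chr1:152984081-152985814, SPRR3 at chr1:153001749-153003856, SPRR1B at chr1:153031203-153032900 and SPRR2A, on the minus strand, at chr1:153056120-153057512. The bases just upstream of the starts of these 4 genes are shown because neighbours in this cluster went in opposite directions. They are from RefSeq on GRCh38.p14, 250 bases each, 5′ to 3′ on the strand of the gene, from chr1:152983831-152984080 (plus) for SPRR1A, chr1:153030953-153031202 (plus) for SPRR1B, chr1:153057513-153057762 (minus) for SPRR2A and chr1:153001499-153001748 (plus) for SPRR3. Capitals mark matches to the AP-1 motif TGACTCA, read here from its other strand as TGAGTCA, and to the TATA box TATAAA.
SPRR1A: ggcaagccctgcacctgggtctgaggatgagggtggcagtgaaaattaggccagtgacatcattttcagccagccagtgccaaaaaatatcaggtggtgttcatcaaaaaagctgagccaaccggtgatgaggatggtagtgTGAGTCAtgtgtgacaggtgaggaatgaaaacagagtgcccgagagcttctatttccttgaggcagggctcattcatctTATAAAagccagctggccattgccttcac
SPRR1B: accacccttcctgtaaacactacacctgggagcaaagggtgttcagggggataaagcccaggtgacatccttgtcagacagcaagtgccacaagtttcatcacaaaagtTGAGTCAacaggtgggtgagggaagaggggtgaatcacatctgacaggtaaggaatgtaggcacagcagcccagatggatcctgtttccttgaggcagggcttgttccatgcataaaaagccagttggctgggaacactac
SPRR2A: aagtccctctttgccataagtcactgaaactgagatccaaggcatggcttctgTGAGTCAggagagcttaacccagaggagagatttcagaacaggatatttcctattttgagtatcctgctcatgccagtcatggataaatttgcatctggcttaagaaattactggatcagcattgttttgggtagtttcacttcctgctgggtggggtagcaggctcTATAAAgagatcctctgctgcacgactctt
SPRR3: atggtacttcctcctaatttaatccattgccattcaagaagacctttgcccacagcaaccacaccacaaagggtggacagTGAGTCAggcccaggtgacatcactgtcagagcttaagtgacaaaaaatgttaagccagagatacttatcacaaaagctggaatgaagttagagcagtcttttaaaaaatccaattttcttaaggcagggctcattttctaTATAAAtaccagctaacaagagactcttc
Each of the 4 held an AP-1 match, at -108 in SPRR1A, -141 in SPRR1B, -197 in SPRR2A and -170 in SPRR3, counted from the gene's start. IVL held another at -123. Matches were sought from 250 bases before to 50 after the start, of which the part before it is printed, and among 35116 RefSeq windows of this extent 4.95% had this motif on either strand. The match was therefore shared by the genes that fell and by those that were higher. TATAAA lay at -29 or -30 in SPRR1A, SPRR2A, SPRR3 and IVL, was not found in the window of SPRR1B, and occurred in 11.5% of all windows. The ETS letters AGGAAGT were found on either strand at -58 in SPRR2A, -245 in SPRR3 and -104 in IVL, against 8.24% of all windows. None of these windows had a match to the C/EBP letters TTGCNNAA, the STAT letters TTCNNNGAA or the kappa-B motif, which 10.5%, 7.66% and 11.3% of all windows held. No match overlapped another. These are matches of letters, and no binding was measured.

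SPRR2A had the highest parental level of the 4 genes. Its log2 values were 3.40, 3.37 and 3.35 in parental cells and 0.51, 0.11 and 0.12 in adapted cells. The parental samples were nearly identical, and every adapted sample lay far below them, adapted replicate 1 the least far. The log2 fold change was -3.13 (SE 0.12, 95% confidence interval -3.41 to -2.84, adjusted p = 3.51e-06), which in mean FPKM was 9.36 to 0.197, or 47.5-fold lower. The fold rests much on adapted replicate 1, and without that sample it was 113-fold. Of the 50-base stretches in its annotated transcripts, 32.7% also occur in another gene, most of them in SPRR2B, so its reads may be shared with close copies. SPRR2B itself was at 0.26 ± 0.17 in parental and 0.04 ± 0.03 in adapted cells.

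SPRR1A and SPRR1B, close copies of each other, both fell. For SPRR1A the log2 values were 1.51, 2.18 and 2.43 in parental cells and 0.21, 0.16 and 0.40 in adapted cells. For SPRR1B they were 2.06, 2.57 and 2.41 against 0.44, 0.55 and 0.51. In both genes parental replicate 1 was the lowest parental sample, and all adapted samples were well below it. SPRR1A changed by -1.79 (SE 0.23, 95% confidence interval -2.32 to -1.26, adjusted p = 0.000499), or 16.8-fold lower in mean FPKM. SPRR1B changed by -1.85 (SE 0.14, 95% confidence interval -2.17 to -1.53, adjusted p = 4.86e-05), or 9.95-fold lower. Their difference within a sample, SPRR1A minus SPRR1B, was -0.31 ± 0.30 in parental and -0.25 ± 0.14 in adapted cells, with overlapping groups (exact permutation p = 0.8, adjusted p = 0.8 over 4 such pairs). Of the 50-base stretches in their annotated transcripts they share 25, or 11.3% of the 221 of SPRR1A and 4.38% of the 571 of SPRR1B. These shares depend on the annotation, which held fewer stretches for SPRR1A. Since adapted levels of SPRR1A, SPRR1B and SPRR2A were under 1 FPKM, the added 1 compresses their change, and with 0.1 added in its place the log2 fold changes were -3.49, -3.02 and -5.19.

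SPRR3, which lies 17.7 kb from SPRR1A on one side and 29.5 kb from SPRR1B on the other, went the other way. Its log2 values were 1.19, 1.47 and 1.13 in parental cells and 1.68, 2.06 and 2.09 in adapted cells. The groups did not overlap, with adapted replicate 1 closest to the parental samples. The log2 fold change was 0.68 (SE 0.15, 95% confidence interval 0.34 to 1.02, adjusted p = 0.0057), 2.04-fold higher in mean FPKM. SPRR3 shares no 50-base stretch with another gene.

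IVL, which encodes involucrin (chr1:152908546-152911886, plus strand), was low throughout. Its log2 values were 0.30, 0.17 and 0.12 in parental cells and 0.49, 0.61 and 0.79 in adapted cells. Every adapted sample was above every parental sample, at levels under 1 FPKM. Its mean over the 6 samples was below the filter, so it has no test there. With every row tested, the difference of 0.43 had a 95% confidence interval of 0.18 to 0.68 (adjusted p = 0.0308). In mean FPKM it was 0.148 in parental and 0.552 in adapted cells. IVL minus SPRR3 was -1.06 ± 0.21 in parental and -1.31 ± 0.13 in adapted cells (exact permutation p = 0.2, adjusted p = 0.267 over the 4 pairs), with groups that overlapped.

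**Figure D2:**
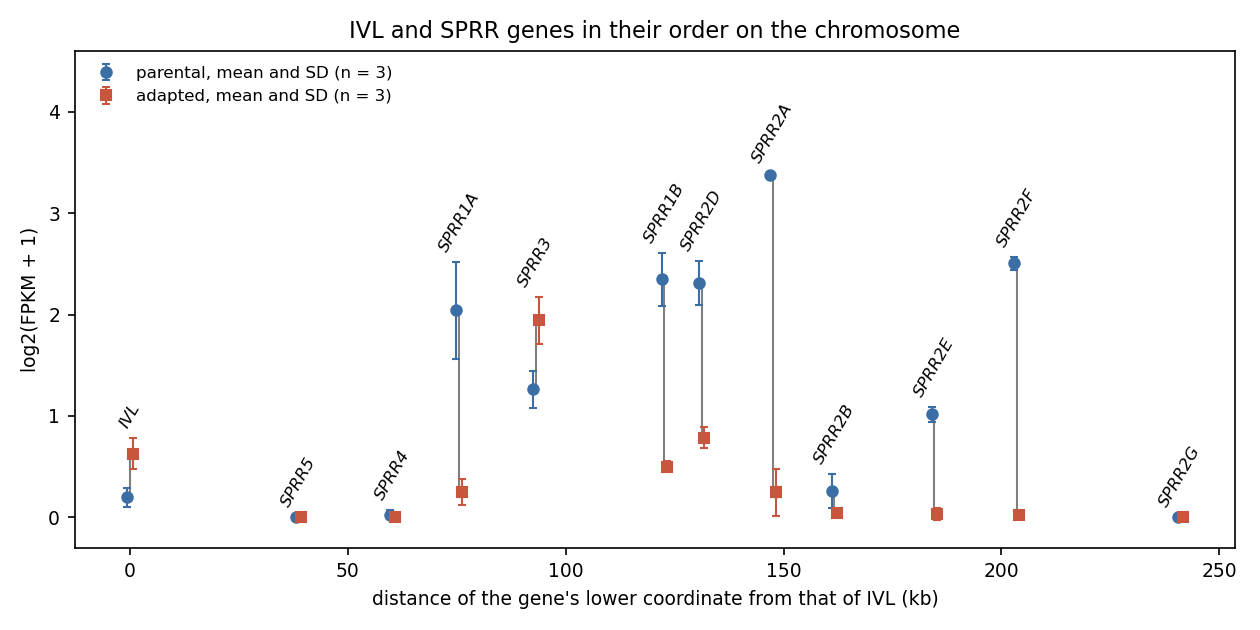
IVL and the SPRR genes in their order along chromosome 1. The horizontal axis is the distance in kb of each gene's lower coordinate from that of IVL, the vertical axis is log2(FPKM + 1), and points with bars are means ± SD of 3 samples. SPRR3 rises between SPRR1A and SPRR1B, which fall, and IVL at the left end is higher in adapted cells.

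Most other genes of this stretch are in a list of 40 further envelope proteins, which holds late envelope genes such as loricrin as well. Of the 40, 21 were at 0 in all 6 samples and 5 passed the filter, of which 2 fell, none rose and 3 were not called, beside 56.9% of all tested rows called. Both that fell were SPRR2 genes that passed the filter through their parental levels. SPRR2F fell by 2.48 on the log2 scale, from 2.50 ± 0.07 to 0.02 ± 0.04 (adjusted p = 2.15e-06). SPRR2D fell by 1.52, from 2.31 ± 0.22 to 0.79 ± 0.10 (adjusted p = 7.88e-05). SPRR2E, chosen for mention after its values were seen, was below the filter at 1.02 ± 0.08 and 0.04 ± 0.06. SPRR2G and SPRR5 were listed at 0 in every sample and SPRR4 was close to it. The 3 genes not called were envoplakin (EVPL) and periplakin (PPL), plakins that tie the envelope to keratin filaments, and sciellin (SCEL), another envelope precursor. EVPL was at 3.64 ± 0.03 in parental and 3.88 ± 0.30 in adapted cells (adjusted p = 0.175). PPL was at 3.90 ± 0.04 and 3.87 ± 0.38 (adjusted p = 0.875). SCEL was at 4.36 ± 0.04 and 4.83 ± 0.61 (adjusted p = 0.171). For these 3 genes 1 library decides the call, since without adapted replicate 1 all were called higher, by 0.41 in EVPL, 0.18 in PPL and 0.82 in SCEL, while the share of all tested rows called rose to 66.1%. The list's median log2 fold change was -0.03, beside 0.03 over all tested rows.

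The crosslinking enzymes TGM1 and TGM2 changed in opposite directions, which brought their levels closer. TGM1 (chr14:24249114-24263177, minus strand) encodes the membrane-bound transglutaminase of keratinocytes, which builds the envelope. Its log2 values were 0.88, 1.19 and 1.05 in parental cells and 1.38, 1.99 and 1.81 in adapted cells. The groups did not overlap, though adapted replicate 1 was near the highest parental sample. TGM1 rose by 0.69 (SE 0.17, 95% confidence interval 0.29 to 1.08, adjusted p = 0.0102), 2.22-fold in mean FPKM. The call was lost when every row was tested (adjusted p = 0.0562). TGM2 (chr20:38127385-38168475, minus strand) encodes tissue transglutaminase, a widely expressed enzyme that also binds GTP and acts on matrix proteins. Its log2 values were 6.77, 6.74 and 6.68 in parental cells and 4.91, 4.39 and 4.65 in adapted cells. Parental samples were tight and all adapted samples lay below them, adapted replicate 1 the highest of these. The log2 fold change was -2.08 (SE 0.12, 95% confidence interval -2.37 to -1.79, adjusted p = 1.85e-05), or 105 to 24.4 in mean FPKM. Within a sample TGM1 minus TGM2 went from -5.69 ± 0.17 to -2.93 ± 0.57, an increase of 2.76 with no overlap (exact permutation p = 0.1, the smallest possible, and adjusted p = 0.2 over the 4 pairs). TGM2 remained the more abundant in every sample. Of 7 other transglutaminase family genes, TGM5 alone passed the filter and was not called, at 0.99 ± 0.10 and 1.11 ± 0.28 (adjusted p = 0.529), so the list's median was 0.12.

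PI3 and SLPI are secreted antiproteases of the whey acidic protein family, with antimicrobial activity of their own. PI3 encodes elafin, an inhibitor of neutrophil elastase that transglutaminases can also link to other proteins, and SLPI encodes the secretory leukocyte protease inhibitor. Their genes, PI3 at chr20:45174902-45176544 and SLPI at chr20:45252239-45254564 on the minus strand, span 79.7 kb together. The semenogelin genes SEMG1 and SEMG2 between them were listed at 0 in every sample. PI3 had log2 values of 4.28, 4.22 and 4.30 in parental cells and 1.24, 1.26 and 1.20 in adapted cells. Both groups were tight, with a wide gap between them. Its log2 fold change was -3.03 (SE 0.06, 95% confidence interval -3.18 to -2.88, adjusted p = 4.08e-07), or 13.5-fold lower in mean FPKM, from 18.3 to 1.35. SLPI had log2 values of 5.53, 5.50 and 5.72 in parental cells and 3.56, 3.79 and 4.28 in adapted cells. The adapted samples were more spread, and replicate 1 was here the lowest of them. Its log2 fold change was -1.71 (SE 0.17, 95% confidence interval -2.12 to -1.30, adjusted p = 0.000188), or 3.36-fold lower, from 47.15 to 14.04 FPKM.

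PI3 was the lower of the pair in parental cells and fell further. PI3 minus SLPI went from -1.32 ± 0.09 in parental to -2.64 ± 0.39 in adapted cells, a change of -1.32 with no overlap (exact permutation p = 0.1, the smallest possible, and adjusted p = 0.2 over the 4 pairs). SDC4, the syndecan 4 gene 150 kb from PI3, was at 7.59 ± 0.03 and 7.82 ± 0.07 and rose by 0.22 (adjusted p = 0.019).

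LCN2 (chr9:128149453-128153453, plus strand) encodes lipocalin 2, which binds bacterial siderophores and so withholds iron. It was the third most abundant of all rows in parental cells, at a mean of 3796 FPKM, and ranked 4 in adapted cells, at 3517 FPKM. Its log2 values were 11.86, 11.89 and 11.92 in parental cells and 11.76, 11.57 and 11.98 in adapted cells. The groups overlapped, since adapted replicate 3 was the highest of all samples and adapted replicate 2 the lowest. The log2 fold change was -0.12 (SE 0.13, 95% confidence interval -0.42 to 0.18, adjusted p = 0.456). It was -0.02 without adapted replicate 2 and -0.23 (adjusted p = 0.117) without adapted replicate 3. The interval from all samples does not reach the change of any of the 6 genes that fell. After quantile normalization the change was -0.36 (adjusted p = 0.00629). Its promoter window had no AP-1 match, a C/EBP match at -143 and a kappa-B match at -175.

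**Figure D3:**
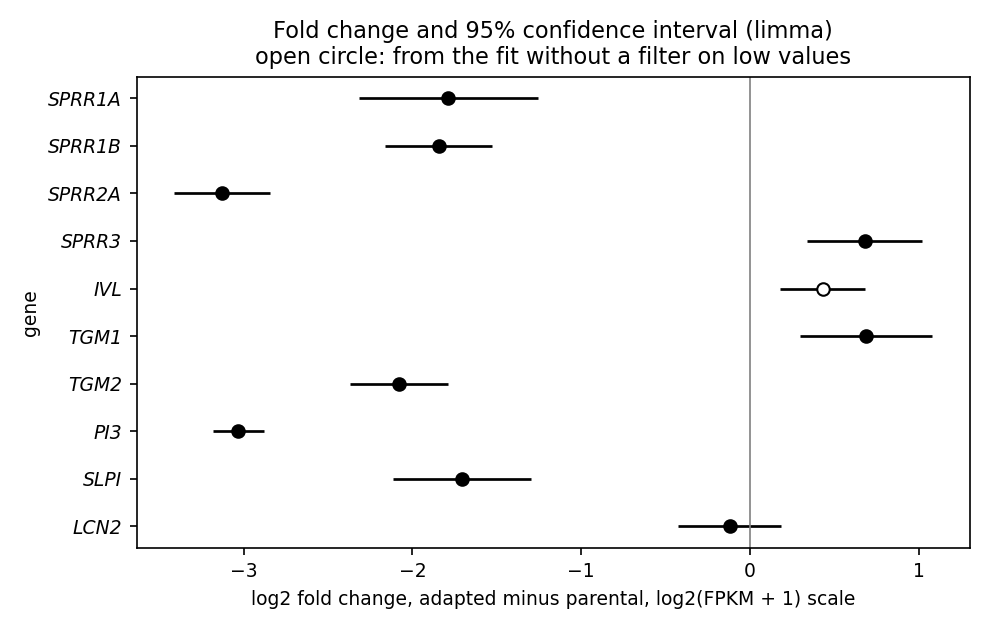
Log2 fold changes of the 10 genes, adapted minus parental, with 95% confidence intervals from limma. The horizontal axis is on the log2(FPKM + 1) scale, filled circles are genes tested after the filter and the open circle is IVL from the fit without it. SPRR2A and PI3 lie farthest to the left at -3.13 and -3.03, and the interval of LCN2 crosses 0.

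The order of the levels changed as well. In parental cells it ran, by mean FPKM, from LCN2 through TGM2, SLPI, PI3 and SPRR2A to SPRR1B and SPRR1A, then SPRR3 and TGM1, with IVL last. The ranges of neighbours overlapped there for SPRR1B with SPRR1A and for SPRR3 with TGM1. In adapted cells LCN2, TGM2 and SLPI kept the top places, followed by SPRR3 and TGM1, whose ranges overlapped, and then PI3. IVL, SPRR1B, SPRR2A and SPRR1A came last, each overlapping the next. SPRR3 thus went from the lowest to the highest of the 4 SPRR genes among the 10. LCN2 made up 95.2% to 95.3% of the summed FPKM of the 10 genes in parental samples and 98.6% to 98.7% in adapted samples. Without it the sums were 188.6, 189.0 and 192.6 FPKM in parental cells and 46.4, 41.5 and 51.3 FPKM in adapted cells. Among the 9 genes whose groups did not overlap, beside 66.3% of all tested rows, adapted replicate 1 was the adapted sample nearest to the parental mean in 5, and replicates 2 and 3 in 2 each. This is not particular to these genes. Over all rows adapted replicate 1 correlated with parental samples at r = 0.972 or more, and adapted replicates 2 and 3 at 0.964 or less. None of the 8 called genes lost its call when any single sample was left out.

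Of 26 further antimicrobial genes of epithelia, 6 passed the filter, of which 4 fell, none rose and 2 were not called, beside 26.2% of all tested rows called lower and 30.7% called higher, with a median log2 fold change of -1.40 beside 0.03 over all tested rows. DEFB4A, which encodes the inducible beta-defensin 2, fell by 1.79, from 7.07 ± 0.08 to 5.27 ± 0.58 (adjusted p = 0.000888). DEFB4B, its nearly identical copy, fell by 1.74, from 3.20 ± 0.22 to 1.46 ± 0.70 (adjusted p = 0.00288), and reads of the pair may be split between them. DEFB1, the beta-defensin gene that epithelia express without induction, fell by 1.69, from 2.37 ± 0.03 to 0.68 ± 0.25 (adjusted p = 5.9e-05), and passed the filter through its parental level. The fourth, named after its values were seen, was WFDC2, another gene of the whey acidic protein family, at 4.80 ± 0.08 and 3.68 ± 0.15 (adjusted p = 7.45e-05). Below the filter, and also named after the values were seen, BPIFB1, an airway secretory protein gene, was listed at 0 in all parental samples and at 1.03 ± 0.45 in adapted cells, and the antimicrobial ribonuclease gene RNASE7 was at 0.94 ± 0.08 and 0.03 ± 0.03.

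Among 24 proteases and protease inhibitors of epithelial surfaces, most of them kallikreins and other serine proteases or their inhibitors, 9 passed the filter, of which 3 rose, none fell and 6 were not called (median 0.19). The share that rose is near the 30.7% of all tested rows called higher. CST6 encodes cystatin M/E, an inhibitor of the cysteine proteases that act on the envelope, and rose by 2.09, from 3.07 ± 0.06 to 5.16 ± 0.47 (adjusted p = 0.00018). The kallikrein-related peptidase gene KLK10 rose by 2.07, from 0.63 ± 0.20 to 2.70 ± 0.75 (adjusted p = 0.0017). KLK11, of the same family, rose by 1.85, from 0.15 ± 0.11 to 2.01 ± 1.11 (adjusted p = 0.0138). KLK10 and KLK11 passed the filter through their adapted levels. Without adapted replicate 2 KLK11 lost its call (adjusted p = 0.0551). Without adapted replicate 1 the count of genes called was 6, with PRSS8, SPINT1 and CTSV added, all higher, beside 66.1% of all tested rows called.

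Of 25 transcription factors known from squamous differentiation or antimicrobial genes, 21 passed the filter, of which 6 rose, 11 fell and 4 were not called (median -0.63), beside 30.7% of all tested rows called higher and 26.2% called lower. JUNB, a component of AP-1, fell most, by 2.0, from 6.66 ± 0.02 to 4.66 ± 0.16 (adjusted p = 4.93e-06). CEBPD and CEBPB, C/EBP factors of inflammatory genes, fell by 1.77, from 6.28 ± 0.07 to 4.51 ± 0.20 (adjusted p = 1.66e-05), and with a log2 fold change of -1.64, from 6.30 ± 0.09 to 4.66 ± 0.13 (adjusted p = 1.07e-05). Of those that rose, HOPX, a homeodomain protein of differentiating keratinocytes and alveolar cells, went from 0.10 ± 0.10 to 2.41 ± 1.16 (log2 fold change 2.31, adjusted p = 0.00629). GRHL3, a grainyhead-like factor of the epidermal barrier that acts on TGM1, went from 0.56 ± 0.09 to 2.16 ± 0.53 (1.60, adjusted p = 0.0012). Its relative GRHL2 went from 3.71 ± 0.03 to 4.44 ± 0.35 (0.72, adjusted p = 0.00671). HOPX and GRHL3 passed the filter through their adapted levels, and CEBPA, among those that fell, through its parental level. Named after the values were seen, the AP-1 gene FOSL1 (-0.82, adjusted p = 0.0899) and the grainyhead-like gene GRHL1 (0.39, adjusted p = 0.158) were not called, and without adapted replicate 1 both were (-1.29 and 0.66). Of those that rose, OVOL2 (0.67, adjusted p = 0.035) lost its call without any 1 of 5 samples, all but adapted replicate 1, and TFAP2A (0.23, adjusted p = 0.0204) lost it without parental replicate 2 or 3.

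**Figure D4:**
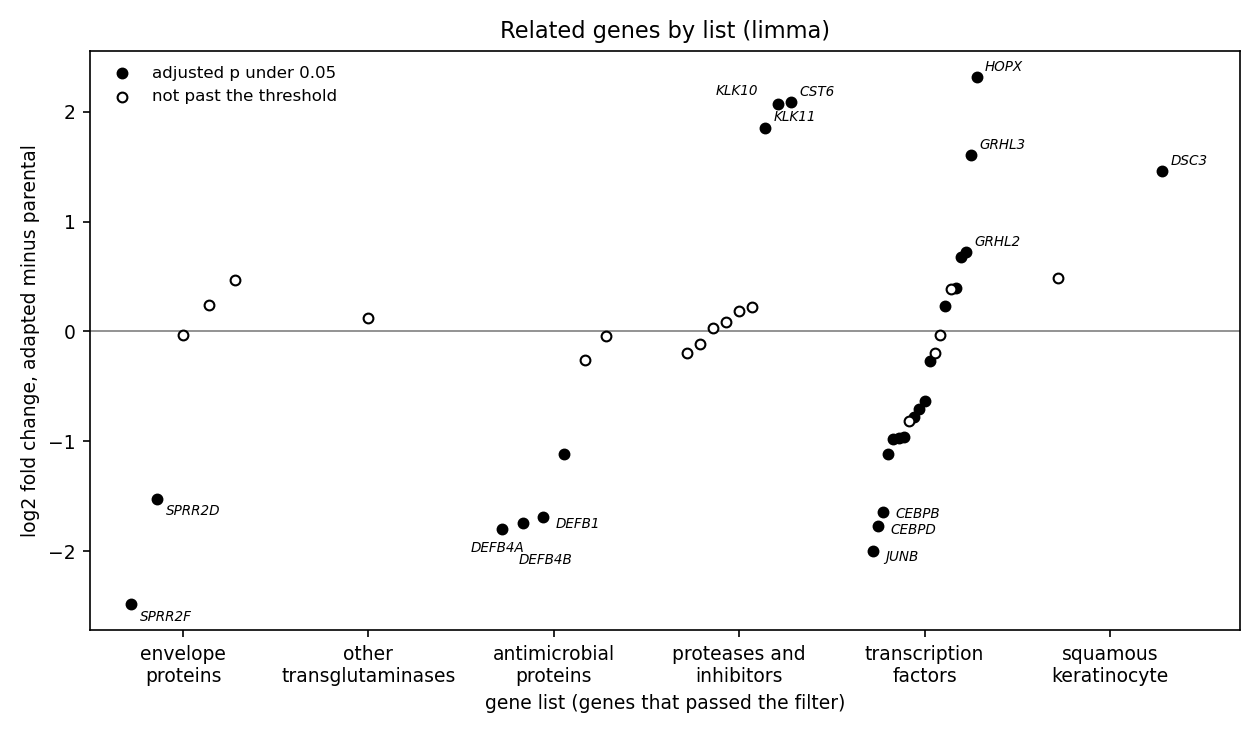
Log2 fold changes, adapted minus parental on the log2(FPKM + 1) scale, of the genes that passed the filter in 6 lists of related genes. Each point is a gene, filled where its adjusted p was under 0.05 and open otherwise, in order of fold change within a list. Called envelope and antimicrobial genes lie below 0, called proteases and inhibitors lie above it, and the transcription factors run from JUNB at -2.0 to HOPX at 2.31. SPRR2D, SPRR2F and DEFB1 passed the filter only through their parental levels, and KLK10, KLK11 and HOPX only through their adapted levels, which fixed their direction. Of all tested rows, 26.2% were called lower and 30.7% higher.

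Genes of squamous keratinocytes were scarce. Of 11 listed, 2 passed the filter, of which 1 rose and 1 was not called, beside 30.7% of all tested rows called higher. The median of 0.97 rests on these 2 genes alone and does not describe the list. DSC3, a desmosomal cadherin gene, rose by 1.46, from 0.93 ± 0.04 to 2.39 ± 0.32 (adjusted p = 0.000236), and passed the filter through its adapted level. KRT10 was at 3.19 ± 0.25 and 3.68 ± 0.84 (adjusted p = 0.307). Below the filter, and named after the values were seen, KRT14 was at 0.05 ± 0.05 in parental and 1.38 ± 0.48 in adapted cells, TRIM29 at 0.04 ± 0.04 and 1.17 ± 0.52, and KRT6A at 1.35 ± 0.13 and 0.23 ± 0.01. KRT14 is a keratin of basal cells and KRT6A a keratin of stressed or hyperproliferative epithelium.

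LCN2, SLPI and S100A12 are also products of neutrophils, so markers of other cells were read, though all samples came from the H1975 line. In bulk RNA, fewer cells that hold a transcript and less of it per cell cannot be told apart. The 6 epithelial markers summed to between 3491 and 3788 FPKM in all samples, but the keratins among them changed. KRT7 rose by 1.07 (adjusted p = 0.000219) and was the most abundant in adapted cells. KRT19, the most abundant in parental cells, fell by 0.75 (adjusted p = 0.000474), KRT18 fell by 0.57 (adjusted p = 0.00427) and KRT8 fell by 0.28 (adjusted p = 0.0477). Of 4 lung markers, NKX2-1 was at 5.0 ± 0.01 and 5.48 ± 0.25 and NAPSA at 6.69 ± 0.01 and 5.88 ± 0.37, while the surfactant genes SFTPB and SFTPC were near 0. The 6 neutrophil markers summed to 1.29, 1.32 and 1.40 FPKM in parental cells and 0.31, 0.19 and 0 in adapted cells, mostly S100A12. FCGR3B was listed at 0 in all samples, and ELANE, MPO, CSF3R and CXCR2 were near 0. The 4 leukocyte markers summed to 0.66 to 0.77 FPKM in parental and 0.11 to 0.26 FPKM in adapted cells, mostly CD14, with CD3E at 0. The 5 fibroblast markers summed to 3.04 to 3.15 FPKM in parental and 7.62 to 9.19 FPKM in adapted cells, mostly COL1A1, which rose by 1.12 on the log2 scale (adjusted p = 7.8e-05). LUM was at 0.05 ± 0.01 and 0.61 ± 0.11, below the filter, with groups that did not overlap, and COL1A2, DCN and PDGFRA were near 0. The 3 endothelial markers summed to 1.13 to 1.86 and 1.42 to 3.47 FPKM. PECAM1 was the most abundant of them in parental cells, at 1.22 ± 0.21 on the log2 scale against 0.09 ± 0.02 in adapted cells, and CDH5 in adapted cells, at 1.71 ± 0.47 against 0.21 ± 0.05. The part of these marker genes in the results above was not tested.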

How the data were processed

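RNA-seq values per gene were deposited by the authors as 1 table on a log2 scale with a value for each of the 6 H1975 samples. Counting method, annotation and unit are not given in the sources used here. The submitters' processing notes list hg38, Bowtie2 2.1.0, STAR and edgeR without roles. The base and the added 1 were inferred from the values, and the linear sums of 375342 to 387753 per sample led to the unit being read as FPKM. Depth per sample is unknown, so precision rests on replicates alone.

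Rows with a mean log2 value of at least 1 were fitted with limma 3.58.1 in R 4.3.3 (lmFit, eBayes with an intensity trend, no pairing), two-sided, with Benjamini-Hochberg adjustment over all 12656 rows tested and a threshold of 0.05. The count model of the study could not be applied to log2 values. Differences between paired genes were tested by exact two-sided permutation over samples. The code was tested on simulated data. All 10 genes are described, and of each list up to 3 called genes that rose most and 3 that fell most without overlap are named. The genes and lists were chosen with earlier results of these data known, so their counts are descriptions. Alternatives were other pseudocounts, filters, scalings, eBayes settings and thresholds, a replicate block and leaving out each sample. Shared stretches were counted in GENCODE v29 transcripts, and promoters came from RefSeq (GRCh38.p14), in a copy that held those of 6 of the 10 genes.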

Additional observations from a re-analysis of the deposited data

How the results depend on the processing

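Limits are that depth is unknown, that levels under 1 FPKM are compressed by the added 1, and that 3 samples a group allow no exact p below 0.1. All directions of the 10 genes held under every alternative run, and calls held but for LCN2, called after quantile normalization (-0.36), and TGM1, not called without a filter (0.69, adjusted p = 0.0562), at the same threshold. IVL, which had no test after the filter, passed the threshold without one (0.43, adjusted p = 0.0308). At a threshold of 0.01 TGM1 was lost, and when a log2 fold change of 1 or more in size was required SPRR3 and TGM1 were both lost, which leaves the 6 genes that fell. With 0.1 added in place of 1, the difference in IVL was 1.41, PI3 minus SLPI changed by -1.88, IVL minus SPRR3 turned to 0.43 and SPRR1A minus SPRR1B to -0.47. The last ran from -0.07 to 0.22 when single samples were left out and was negative without parental replicate 1 (-0.066) or adapted replicate 3 (-0.01), all with groups that overlapped in the full data. Of all rows, 7202 were called, 4532 under the stricter filter of a mean of 3, which keeps only LCN2, SLPI and TGM2 of the 10 genes, and 1328 with that limit on size. With rescaling to an equal sum without mitochondrial genes, 4295 rows were higher and 2975 lower, against 3889 and 3313. Counts in the lists moved with the filter: without one, 9 antimicrobial genes, 5 proteases and inhibitors and 5 squamous genes were called (29.5% of all rows were). Under the stricter one they were 2, 1 and 0, with 0 envelope genes, beside 58.9% of the 7693 rows tested there. Leaving out adapted replicate 1 gave 5 envelope genes and 6 proteases and inhibitors (66.1% of all tested rows were called). The causes were not tested. A replicate block gave 6761 rows called and changed no call among the 10 genes. Deviations of same-numbered samples correlated at -0.05, -0.03 and -0.02, and those of differently numbered samples at -0.04 to 0.07. No pairing by number was seen, though such values cannot show how the samples were prepared.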
